A study of Mus musculus with 6 samples.

Results

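Stretches of the mouse genome in which a peak of thyroid hormone receptor α (TRα) was called in exactly 3 or exactly 4 of 6 gastrocnemius muscles are described here. Peaks of the 6 deposited lists were merged wherever they overlapped by at least 1 bp, which gave 458111 regions. Of these, 2420 held a peak of 3 lists and 378 held a peak of 4 lists, so 2798 regions, or 0.611% of all, met the rule. They were chosen by the presence of a called peak in each list, so the number of lists per region and the height of the peaks against other peaks are descriptions with no test. Tests were kept to which mice share the regions and to how values per mouse run with age.

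The 6 mice were 2 at 6 months (labelled youth-1 and youth-2), 2 at 15 months (mid-1 and mid-2) and 2 at 21 months (old-1 and old-2), and each has 1 list. The labels name neither strain nor sex nor any treatment or gene alteration, and all 6 muscles went through chromatin immunoprecipitation with the same anti-TRα antibody and sequencing. No list from muscle without the receptor, or from an unrelated antibody, was used here. The material was muscle tissue, which holds muscle fibres and other cells, and the lists cannot tell their nuclei apart.

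TRα is a nuclear receptor that sits on DNA at thyroid hormone response elements, often as a partner of a retinoid X receptor. Without hormone it recruits corepressors, and with triiodothyronine it recruits coactivators. In skeletal muscle it is the main receptor isoform and is known for control of fibre type, calcium handling and energy use.

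The lists are of unequal length and mostly shallow. They held 29405 to 106152 peaks, with a median pileup (fragments stacked at the summit) of 4 or 5 in every list. The shortest list was that of mid-2, with 29405 peaks. Enrichment was weakest in youth-1, where 44 peaks reached a fold of 10 over input, against 108 to 211 in the other lists. Fold is the authors' ratio over the paired sample named IN, read here as input. Between 1.16% (youth-1) and 4.27% (mid-2) of the peaks of a list had q of at most 0.05 (3.05% in youth-2, 1.63% in mid-1, 2.41% in old-1 and 1.9% in old-2). No listed peak had p above 0.01, and the lowest listed pileup was 3 or 4 fragments, so absence from a list is not absence of binding. Coordinates are GRCm39 positions counted from 1, since scaffold names in the lists (GL456233.2 and MU069435.1) belong to that build.

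Regions in 3 or 4 lists were more numerous than in lists moved apart, and the excess was far greater for 4 lists than for 3. When each list was moved by a different multiple of 5, 10 or 20 kb in either direction (6 arrangements), 878 regions on average held 3 lists (range 827 to 907) and 27.7 held 4 lists (22 to 32). The deposited lists gave 2.76 times that number at 3 lists and 13.7 times at 4 lists. Moved lists thus gave 878 regions of 3 lists beside the 2420 observed, and which single regions they stand for cannot be read from these counts. No moved arrangement held a region of 5 or 6 lists.

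Most of the regions were low. Their median width was 602.5 bp and their median fold over input 2.97, with quartiles of 2.73 and 3.31. The median fold was 2.95 at 3 lists and 3.14 at 4 lists. On either side of the rule, the 26270 regions of 2 lists had a median fold of 2.90, and the 148 regions of 5 lists a median fold of 5.26. A peak with q of at most 0.05 was present in 736 of the 2798 (26.3%), where 2.05% of all merged regions had one. Every further peak adds a chance of reaching that q, and single-list regions make up most of that background. In 2062 regions (73.7%) no list reached that q. In 108 regions (3.86%) q was at most 0.05 in every list that held them, where this was so in 1.55% of all merged regions and in 1.5% of those in 2 or more lists. These 108, of which 58 were in 3 lists and 50 in 4, are called low-q regions in what follows. From 2 lists up, the share with q of at most 0.05 in every holding list rose with the number of lists. It was 0.712% at 2 lists, 2.40% at 3, 13.2% at 4, 45.3% at 5 and 68.75% at 6.

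The combinations of mice that shared these regions were uneven. The commonest of the 15 combinations of 4 lists was youth-2, mid-1, old-1 and old-2, with 83 regions against 2.83 in moved lists (range 0 to 7). It is the combination that leaves out the weakest list, youth-1, and the shortest, mid-2. The rarest were youth-1, mid-1, mid-2 and old-1, and mid-1, mid-2, old-1 and old-2, with 8 regions each. Regions made of both mice of 2 ages and neither mouse of the third numbered 51 of 378, or 13.5%, and 19.9% in moved lists. Over the 15 ways to pair the 6 mice this share ran from 13.5% to 29.6% with a mean of 20%, so the pairing by age gave the lowest share. It lay no farther from the mean than 3 other pairings (exact permutation over pairings, two-sided p = 0.267). The smallest p that 15 pairings allow is 0.0667, so this test cannot reach 0.05 and says nothing of the absence of a grouping by age. The 3 highest shares, 28.8% to 29.6%, all came from pairing youth-1 with mid-2.

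Among the 2420 regions of 3 lists, 1431 (59.1%) held both mice of 1 age and 989 (40.9%) held 1 mouse of each age. The share with a whole age was 60.6% in moved lists and 57.4% to 62.4% over the 15 pairings (mean 60%, exact permutation over pairings, two-sided p = 0.533). Both 6-month mice were present in 640 regions, both 15-month mice in 307 and both 21-month mice in 484. Against moved lists these counts were 2.74, 3.54 and 2.29 times as high. The counts by age thus put 15 months lowest and the ratios put it highest, and the 15-month lists include the shortest one. The commonest combination of 3 lists was youth-2, mid-1 and old-2, with 234 regions against 72.8 in moved lists.

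**Figure D1:**
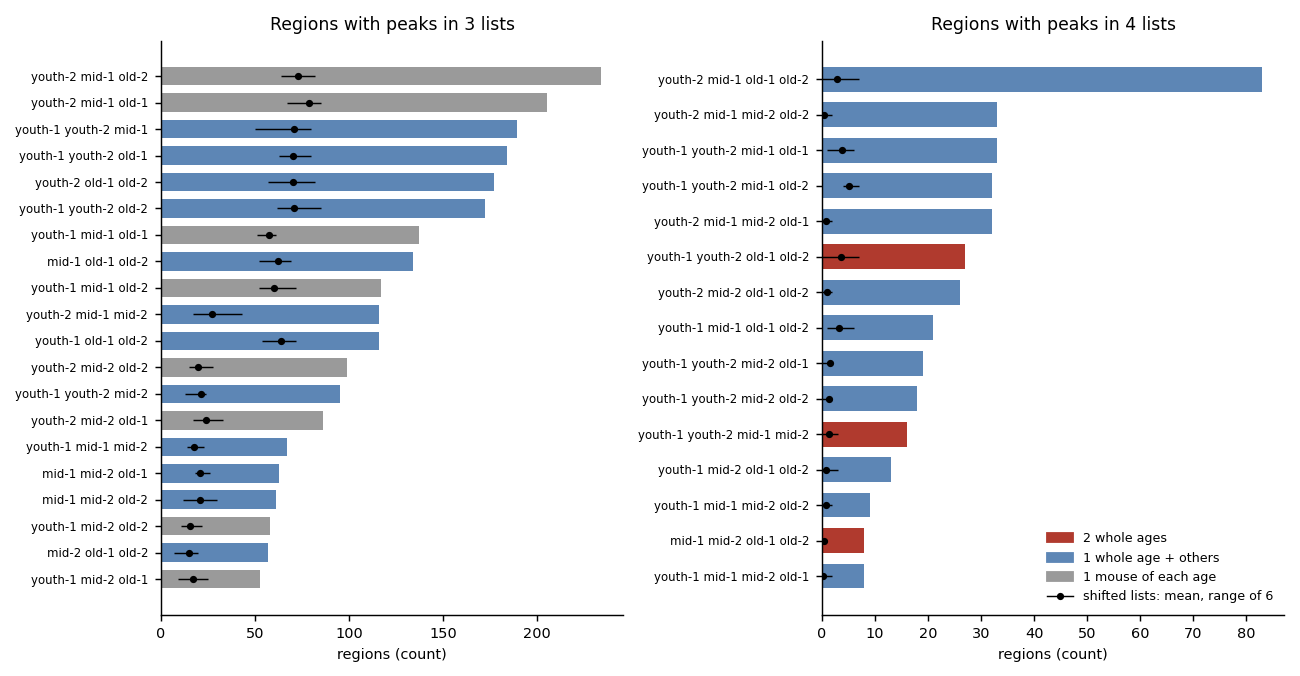
Number of regions (horizontal axis) for each of the 20 combinations of 3 lists and the 15 combinations of 4 lists, coloured by how many whole ages they hold. Black points and lines give the mean and range over 6 arrangements of moved lists. The bar of 83 regions for youth-2, mid-1, old-1 and old-2 is the longest at 4 lists, and the combinations of 2 whole ages have 27, 16 and 8.

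Both 15-month and both 21-month mice, with neither 6-month mouse, shared 8 regions, which is 0.00175% of all merged regions. Moved lists gave 0 or 1 (mean 0.5). The highest by rank of fold within the lists was at chromosome 11, 104412209 to 104412416. Its folds were 9.14 in mid-1, 4.74 in mid-2, 6.44 in old-1 and 6.44 in old-2, and q was at most 0.05 in all 4. The summits of these peaks lay within 30 bp of each other, and the nearest 6-month peaks were 23157 bp (youth-1) and 5318 bp (youth-2) away. The mice of both ages overlapped in fold here, with mid-1 highest and mid-2 lowest.

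The next of the 8 was the region that the deposited tables attach to Camk2b, at chromosome 11, 5992859 to 5993460. Camk2b encodes a subunit of a calcium/calmodulin-dependent kinase that reads calcium signals in muscle. Its folds were 7.92 in mid-1, 4.93 in mid-2, 9.93 in old-1 and 3.12 in old-2, so the 21-month mice were the highest and the lowest. Its 4 summits lay within 54 bp, and q was at most 0.05 in 3 of the 4 mice. The exception was old-2, with a pileup of 5. The nearest peak of youth-1 was 4089 bp away. Both 6-month mice had other peaks attached to Camk2b, 5 each, beside 3 in mid-1, 2 in mid-2, 1 in old-1 and 4 in old-2 with the region itself counted. Ranked after it was chromosome 13, 102523400 to 102523648, with folds of 3.68, 5.69, 2.90 and 3.52 in mid-1, mid-2, old-1 and old-2 and q of at most 0.05 in all 4. The input there was 15.5 times the genome-wide level. Then came chromosome 4, 7616428 to 7616747, where old-1 stood highest with a fold of 9.37 against 2.36 in mid-1, 3.29 in mid-2 and 4.68 in old-2. It was followed by chromosome 1, 161764851 to 161765702, where mid-1 and old-1 had folds of 2.22 and 3.18 and mid-2 and old-2 had 4.85 and 5.17. The mouse numbered 2 was the higher at both ages there, and the outermost summits lay 521 bp apart. The other 3 regions lay on chromosomes Y, 6 and 7, with folds between 2.11 and 4.03. Of the 8, 6 had all summits within 100 bp and 2 were low-q regions.

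This set rests on both 6-month mice lacking a peak. Among regions of 5 lists, 106 of 148 lacked youth-1 alone and 2 lacked youth-2 alone. Without youth-2 the regions held by every 15- and 21-month mouse and not by youth-1 numbered 114, and without youth-1 those not held by youth-2 numbered 9. Asking for 1 mouse fewer among the older ones also raised the count, to 65 without mid-1, 141 without mid-2, 69 without old-1 and 70 without old-2. With peaks of q at most 0.05 alone, the set held 4 regions.

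Both 6-month and both 15-month mice, with neither 21-month mouse, shared 16 regions (0.00349% of all), against 1.33 in moved lists. These were low and their summits scattered. Their median folds ran from 2.57 to 3.58, 1 of the 16 had all summits within 100 bp, and 13 had input over 1.5 times the genome-wide level. The highest ranked, at chromosome 14, 120981183 to 120981428, was the only low-q region of the set. Its folds were 3.30 in youth-1, 3.78 in youth-2, 4.50 in mid-1 and 3.37 in mid-2, over an input of 5.08 times the genome-wide level. The following 4 lay at chromosome 3, 102798281 to 102799577, chromosome 12, 73395061 to 73395921, chromosome 1, 19200920 to 19201991, and chromosome 1, 42418029 to 42418718. The highest fold in any mouse among them was 4.65. Peaks of the 21-month mice lay near some of these 4. The nearest peaks of old-1 and old-2 were 26221 and 5851 bp away on chromosome 3, and 266 and 31673 bp on chromosome 12. On chromosome 1 they were 1570 and 596 bp away at the former region and 1481 and 7066 bp at the latter.

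Both 6-month and both 21-month mice, with neither 15-month mouse, shared 27 regions (0.00589% of all), against 3.67 in moved lists. One of them stood far above the rest, at chromosome 10, 17259397 to 17259839. Its folds were 8.65 in youth-1, 55.1 in youth-2, 97.0 in old-1 and 69.0 in old-2, with pileups from 18 to 175 and summits within 22 bp. Youth-1 was by far the lowest of the 4, and among the other 3 the 21-month mice were both above youth-2. Neither 15-month list had a peak in it. The nearest peak of mid-1 was 756 bp away and that of mid-2 was 48419 bp away. The next 4 were low, with folds between 3.01 and 5.90. They lay at chromosome 1, 23335019 to 23335547, chromosome 4, 146802676 to 146803562, scaffold JH584304.1, 26991 to 27279, and chromosome 12, 20108020 to 20108679. Beside the one on chromosome 1, the nearest peaks of mid-1 and mid-2 were only 109 and 71 bp away. On the scaffold they were 332 and 20044 bp away. On chromosome 4 the distances were 9755 and 21534 bp, and on chromosome 12 they were 95793 and 159693 bp. The region on the scaffold had an input of 7.66 times the genome-wide level and was, with that on chromosome 10, 1 of the 2 low-q regions of the set. With peaks of q at most 0.05 alone, the sets without 21 months and without 15 months held 1 and 2 regions. With equal list lengths the sets without 6, 21 and 15 months held 8, 8 and 6 regions. The order of the 3 counts was thus not kept there.

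A few regions of 3 or 4 lists were strongly enriched and still had no peak in the remaining mice. The highest was at chromosome 1, 165586890 to 165587382. Its pileups lay between 680 and 933 and its folds were 271 in youth-2, 368 in mid-1, 343 in old-1 and 303 in old-2. The summits lay within 5 bp of each other. Youth-1 and mid-2 had no peak there, and their nearest peaks were 14105 and 17763 bp away. Their lists include peaks with pileups as low as 4. The 4 mice with the peak span all 3 ages, and the 2 mice of 6 months, like the 2 of 15 months, fell on opposite sides. The cause of this split was not tested.

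The same 4 mice shared a region at chromosome 13, 73668745 to 73669090. Its folds were 19.8 in youth-2, 18.3 in mid-1, 39.6 in old-1 and 28.3 in old-2, so both 21-month mice were above both others. They also shared one at chromosome 7, 140877919 to 140878357, where mid-1 was highest with a fold of 20.7 and old-1 lowest with 8.31, the reverse of the order at chromosome 13. The last of the 10, at chromosome 4, 130775795 to 130776404, had folds from 6.13 to 8.45 in these mice, and a peak of youth-1 lay 522 bp away.

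The other 5 of the 10 highest regions of 4 lists lacked other mice. Old-1 was missing at chromosome 1, 69285895 to 69286202 (folds from 14.6 to 25.3), where its nearest peak was 366 bp away and that of youth-1 544 bp away, and at chromosome 6, 145878494 to 145878753 (7.72 to 17.9). Mid-1 was missing at chromosome 19, 27951421 to 27951740 (9.70 to 20.9), and at chromosome 18, 84176904 to 84177425 (6.85 to 12.1). Old-2 was missing at chromosome 16, 87223734 to 87224274 (9.84 to 18.4). Youth-1 was absent from all 5 of these.

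Among regions of 3 lists the highest lay below the 2 highest of 4 lists. It was at chromosome 4, 139123170 to 139123382, and had nearly equal folds in a mouse of each age, 46.7 in youth-2, 41.6 in mid-1 and 41.4 in old-2, with summits within 4 bp. Its other mouse of 21 months, old-1, had its nearest peak 20935 bp away. The next, at chromosome 6, 69493321 to 69493712, lacked both 6-month mice, with folds of 40.7 in mid-1, 28.4 in old-1 and 26.3 in old-2. The nearest peak of youth-2 lay 2913 bp away. The region at chromosome 16, 96177079 to 96177619, was in the same 3 mice with folds from 12.7 to 23.4. Regions at chromosome 12, 111031028 to 111031379, and at chromosome 17, 33561384 to 33561610, again held 1 mouse of each age, youth-2, mid-1 and old-1, with folds from 14.3 to 28.3. At chromosome 3, 68107155 to 68107452, the region had a fold of 5.46 in youth-1 beside 26.3 in youth-2 and 25.3 in old-2. The remaining 4 of the 10 lay on chromosomes 11, 3, 1 and X, with folds from 7.51 to 19.6.

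**Figure D2:**
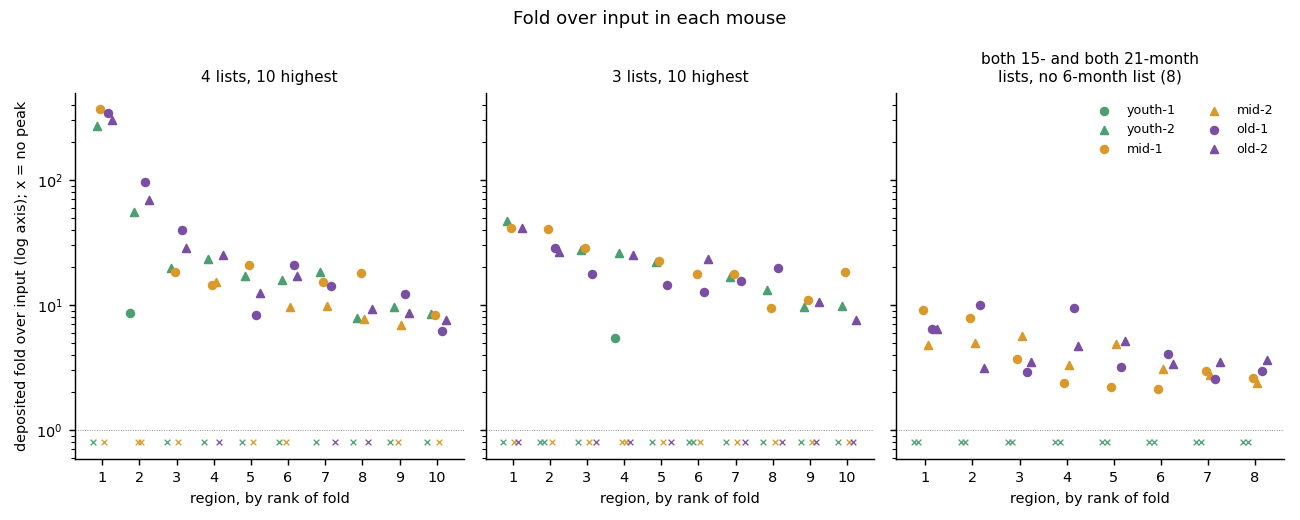
Deposited fold over input (log axis) in each mouse for the 10 highest regions of 4 lists, the 10 highest of 3 lists and the 8 regions held by both 15- and both 21-month lists and no 6-month list; crosses under the line at 1 mark mice with no peak. Folds of 271 to 368 stand at the first region of the left panel, and youth-1 is missing in 9 of its 10 regions.

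Of the 108 low-q regions, 67 (62.0%) lacked both youth-1 and mid-2, against 29.8% of all 2798 regions. At least 1 of these mice was missing in 102 (94.4%), close to the 87.3% of all regions, since the rule itself leaves out 2 or 3 lists. Youth-1 held 16 of them and youth-2 90, mid-1 81 and mid-2 31, old-1 70 and old-2 86. The mice of 6 months were thus farthest apart, those of 15 months next, and those of 21 months closest. The commonest combination was again youth-2, mid-1, old-1 and old-2, with 26 regions, whose median fold was 6.66, 5.48, 5.62 and 5.64 in that order. It was followed by youth-2, mid-1 and old-2 with 14, and youth-2, old-1 and old-2 with 11. Combinations of 2 whole ages made 5 of the 50 low-q regions of 4 lists. In 17 of the 108 a list without the region had a peak within 1 kb of it.

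**Figure D3:**
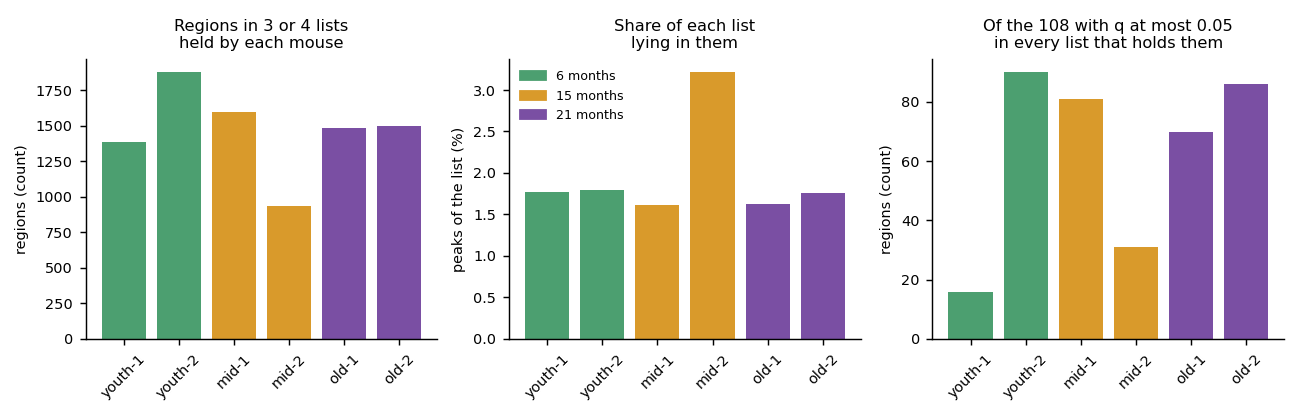
For each mouse, coloured by age, the number of regions in 3 or 4 lists that it held, the share of its list that lay in them, and the number of low-q regions that it held. The right panel shows 16 and 90 for the 6-month mice, 81 and 31 for the 15-month mice and 70 and 86 for the 21-month mice.

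Summit positions, which the rule does not use beyond overlap, were closer together in the low-q regions than in the rest. All summits fell within 50 bp of each other in 66 of these 108 regions (61.1%), and the median distance between the outermost summits was 36.5 bp. In the 2062 regions without any peak of q at most 0.05 this was so in 67 (3.25%), with a median distance of 290 bp. Moved lists gave 1.37% and 328 bp at 3 lists, and 0% and 481.5 bp at 4 lists. Regions in which some but not all peaks had q of at most 0.05 lay between, with 9.08% and 211 bp. Narrow regions leave less room between summits, and the low-q regions were narrower, with a median of 330.5 bp against 619.5 bp. By number of lists, all summits lay within 50 bp in 20.2% of regions at 2 lists, 6.03% at 3 and 11.6% at 4. At 5 and 6 lists the shares were 33.8% and 50.9%. Moved lists gave 17.6% at 2 lists.

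**Figure D4:**
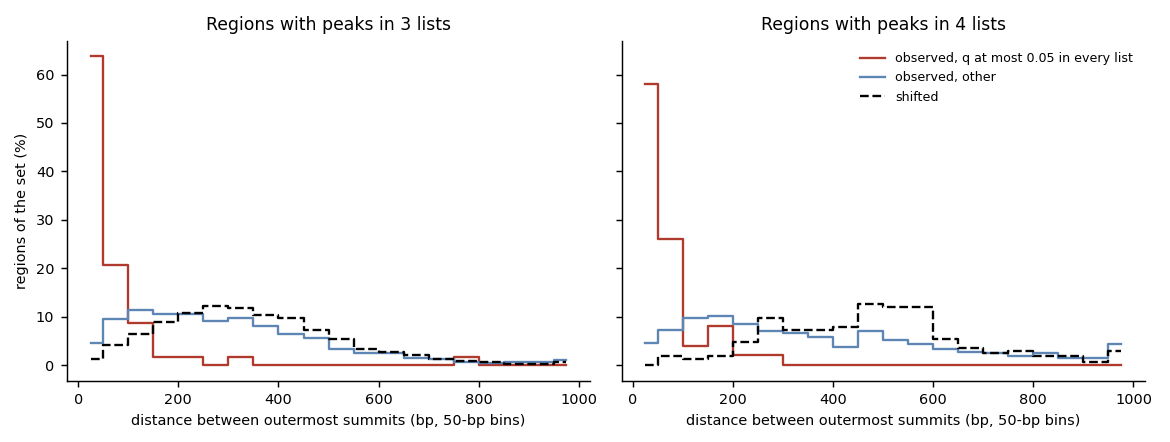
Distance between the outermost summits of a region (50-bp bins, the last bin holding all longer distances) as a share of each set, for regions of 3 lists and of 4 lists. The low-q regions peak in the lowest bin, with 63.8% at 3 lists and 58.0% at 4 lists, while the other regions and the moved lists spread over longer distances.

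Within regions of 3 or 4 lists the mice ranked folds in a weakly similar order. Across regions, Spearman's rho of the within-list fold rank was between -0.01 and 0.37 over the 15 pairs of mice, with a median of 0.20 and 356 to 973 regions per pair. It was between -0.00 and 0.09 for regions of 2 lists and between 0.90 and 0.96 for regions of 5 or 6 lists. These are descriptions across regions that share an input level and a width, and regions are not replicates.

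The regions were unevenly spread over chromosomes. Chromosomes 1, 2 and 3 held 1004 of the 2798 (35.9%), with 427 on chromosome 1, 304 on chromosome 2 and 273 on chromosome 3, although 21.4% of all merged regions lie there. Their number was 4.57 times that in moved lists, against 2.49 times on chromosomes 4 to 19 together. Chromosome 4 alone, with 172 regions, stood at 4.02 times, above chromosome 3 at 3.92 times. The unplaced scaffolds stood at 3.97 times. Lists were moved without wrapping at sequence ends, so on a short scaffold they can slide past one another. The scaffold ratio is therefore not comparable with those of chromosomes. On chromosome X 0.966% of merged regions were in 3 or 4 lists, against 1.19%, 0.941% and 0.916% on chromosomes 1, 2 and 3. The difference between chromosomes 1 to 3 and 4 to 19 was seen in every mouse. Of the peaks of a mouse on chromosomes 1 to 3, 2.67% to 6.00% lay in regions of 3 or 4 lists, against 1.27% to 2.28% of its peaks on chromosomes 4 to 19, with mid-2 highest in both.

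Input moved with this placement. The local input background was over 1.5 times the genome-wide level of the list in 57.5% of the regions on chromosomes 1 to 3 and in 20.5% of those on chromosomes 4 to 19. Over all peaks the same shares were 14.0% and 8.62%. Where the input was raised, 4.93% of merged regions on chromosomes 1 to 3 were in 3 or 4 lists, against 1.22% on chromosomes 4 to 19. Where it was not, the shares were 0.494% and 0.412%. The part of input in the sharing of these regions was not tested. Of the low-q regions, 29 of 108 (26.9%) lay on chromosomes 1 to 3, between the 21.4% of all merged regions and the 35.9% of all regions in 3 or 4 lists.

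**Figure D5:**
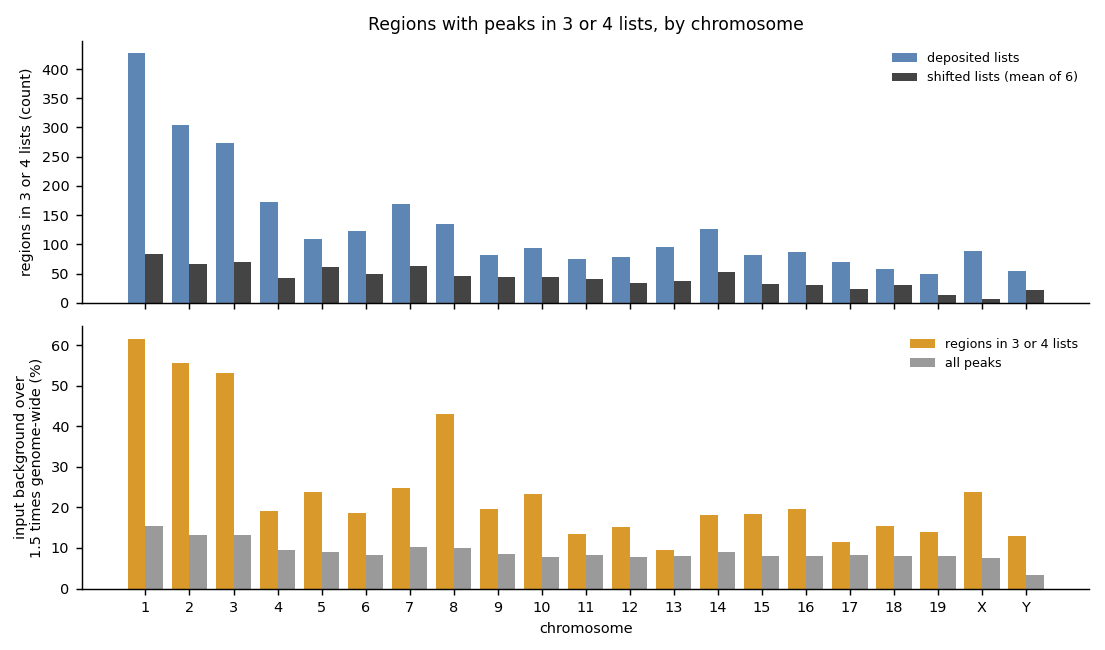
Upper panel, number of regions in 3 or 4 lists on each chromosome beside the mean of moved lists. Lower panel, percentage of those regions, and of all peaks, with a local input background over 1.5 times the genome-wide level. Chromosomes 1, 2 and 3 hold 427, 304 and 273 regions, and 61.6%, 55.6% and 53.1% of them have raised input.

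No trend with age was detected in how many of these regions a mouse held. Youth-1 and youth-2 held 1384 and 1876, mid-1 and mid-2 1598 and 937, and old-1 and old-2 1482 and 1495, so that the means by age were 1630 ± 348, 1268 ± 467 and 1489 ± 9.19 (SD, n = 2 each). Against age, Pearson's r was -0.26, with a two-sided exact permutation p of 0.656 and an adjusted p of 0.989 over 3 measures. For Spearman's rho, which was -0.12, the exact permutation p was 0.844 both raw and adjusted. Leaving out both 6-month mice, whose age lies farthest from the median, turned r to 0.43. The ages overlapped, and the lowest mouse was that of the shortest list.

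As a share of the list, regions of 3 or 4 lists took up 1.76% of the peaks of youth-1, 1.80% of youth-2, 1.62% of mid-1, 3.21% of mid-2, 1.63% of old-1 and 1.76% of old-2. Only mid-2 stood apart from the other 5 mice. For this share Pearson's r was 0.00, with a two-sided exact permutation p of 0.989, also after adjustment, and -0.54 once the 6-month mice were left out. Its Spearman's rho of -0.48 had an exact permutation p of 0.4 and an adjusted p of 0.8. The median within-list percentile of fold of these peaks was 60.6 in youth-1, 70.6 in youth-2, 63 in mid-1, 50.7 in mid-2, 66.4 in old-1 and 71.8 in old-2. Pearson's r was 0.12 here, with a two-sided exact permutation p of 0.844 (0.989 once adjusted), and 0.79 with the 6-month mice left out. Spearman's rho of 0.36 had an exact permutation p of 0.533 and an adjusted p of 0.8. With the exception of mid-2, the peaks ranked above the middle of their list by 10 or more percentiles.

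Genes could be named for 17 of the regions (0.608%), close to the 0.783% of all merged regions, and these named 15 genes. The names come from annotation text that the deposited tables attach to a small part of the peaks, at an unknown distance from the gene, so genes without such text are not covered. None of the 17 was a low-q region, and in 5 some list reached q of at most 0.05.

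Camk2b ranked highest of the 17 by fold within the lists. Prox1, a homeobox transcription factor, had a region at chromosome 1, 189909859 to 189910087, in replicate 2 of each age, with folds of 4.29 in youth-2, 3.66 in mid-2 and 4.29 in old-2. Its summits lay within 59 bp, and q was at most 0.05 in 2 of the 3 mice. F2rl1, which encodes a protease-activated receptor, had a region at chromosome 13, 95643273 to 95643615, in youth-2, mid-1, old-1 and old-2. Its folds there were 3.59, 3.33, 5.39 and 4.09, with both 21-month mice above the other 2, summits within 52 bp, and q of at most 0.05 in 1 mouse. A region of Zc3h12b, of a family of RNA-binding zinc finger proteins, lay on chromosome X, 94737190 to 94737703, with folds of 2.95 in mid-1, 3.86 in old-1 and 5.26 in old-2.

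In the other 12 named regions no list reached that q. They belonged to Src, a tyrosine kinase, and to Grin2a, a glutamate receptor subunit with 2 regions. The autophagy enzyme gene Atg7 also had 2, and the scaffold protein genes Dlg2 and Dlg3 had 1 each. The rest were attached to the dopamine receptor gene Drd1, the ectoenzyme gene Enpp1, the Notch ligand gene Dll4, the lipopolysaccharide receptor gene Tlr4 and the kinesin gene Kif5b. Their folds lay between 2.20 and 4.22, and each summit distance was over 100 bp. Src and Enpp1 shared with Prox1 the combination of all 3 mice numbered 2.

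Over all genes named in the tables, 15 of 395 (3.80%) had a region in 3 or 4 lists, and no list was tested against that share. Of the gene lists, thyroid hormone signalling and response had 5 of 31 genes named anywhere in the tables and 0 at these regions. Calcium and calmodulin kinase signalling had 6 of 18 named and 1 here (Camk2b), Wnt and Notch 15 of 21 and 1 (Dll4), and inflammation and NF-κB, a marker list for immune cells, 9 of 15 and 1 (Tlr4). Neuronal receptors and synapse, a marker list for another cell type, had 9 of 16 named and 2 here (Drd1 and Grin2a). Insulin, IGF and mTOR had 12 of 21 named, TGF-β, BMP and activin 14 of 20, and both had 0 here. Genes with more peaks have more chances of a shared region, and Grin2a and Atg7, with 95 and 75 peaks over the 6 lists, were the only genes with 2.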

How the data were processed

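TRα ChIP-seq of gastrocnemius of 6 mice, 2 per age, was analysed from 1 peak table per mouse. The submitters' processing notes list MACS2 2.1.1.20160309, Trimmomatic 0.36, HOMER 3 and SAMtools 1.3.1, and both GRCm39 and mm10 as builds. Aligner and caller options: not given in the sources used here. Peak names in the deposited tables pair each mouse with 1 sample named IN, read here as its input. The pileup deposited by the authors is a signal, in fragments at the summit. The authors' fold enrichment, as deposited, was read as the ratio of (pileup + 1) over (local input + 1). For p and q the deposited columns hold −log10 values, and their damaged headers were read by column order. All are each peak's own values, used within lists.

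Peaks of all 6 tables, 491681 in all, were merged by at least 1 bp with Python 3.11.15, pandas 2.3.3 and NumPy 2.4.6, and merging was checked on simulated lists. The browser-format lists held the same peaks in 6 of 6 mice. Local input was recovered as (pileup + 1) / fold − 1 and divided by the lowest value of its list. Where a list had several peaks in a region, that of highest fold was used. Regions were ranked by averaging the percentile of fold that each holding list gave them. Named are the 10 highest of 4 lists and of 3 lists, the 5 highest of each combination of 2 whole ages, the 3 highest with 1 mouse of each age, and all regions with a gene. Gene names came from protein accessions in annotation text, matched with a GRCm38.p6 table used for names only. The region of 1 gene is counted but not reported here. Age grouping was tested by exact permutation over 15 pairings, and trends over 90 assignments of ages with Benjamini-Hochberg adjustment. The regions and gene lists were chosen with earlier results of these data known. Sequences of the regions are not shown, since no genome of this build was used here.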

Additional observations from a re-analysis of the deposited data

How the results depend on the processing

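Read totals were not used here, so depth is known only through pileup, and a list can miss a region that its depth does not resolve. The number of regions in 3 or 4 lists was 168 at q of at most 0.05, 91 at −log10 q of at least 5, 1359 at a pileup of at least 5, 764 with equal list lengths, 863 with 50 bp on each side of the summit, and 1794 without chromosomes 1, 2 and 3, which was added after seeing the data. Leaving out 1 mouse changes the rule to 3 or 4 of 5 lists and gave 1352 (without youth-2) to 2169 (without mid-2), with 1620 without youth-1, 1591 without mid-1, 1709 without old-1 and 1684 without old-2.

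Restricted to peaks of q up to 0.05, the sets 15 and 21 months without 6 months, 6 and 15 without 21, and 6 and 21 without 15 held 4, 1 and 2 regions. A −log10 q of 5 or more left 2, 0 and 1. In the same order, the sets were 8, 8 and 6 with equal list lengths and 10, 4 and 7 with 50 bp around summits. Without chromosomes 1, 2 and 3 they were 7, 8 and 16. The order of the 3 counts was thus not kept with equal list lengths or around summits. At a pileup of at least 5 they were 7, 9 and 20. Counting only regions with q of at most 0.05 in every list that holds them, added after seeing the data, gave 2, 1 and 2. Leaving out 1 mouse, after which an age counts as held by its remaining mouse, gave 9 (without youth-1) to 141 (without mid-2), 24 (without old-1) to 204 (without mid-2), and 35 (without mid-2) to 206 (without old-2). The set without 21 months was 6.40 times the moved lists with shifts of 5 kb alone, and shifts of 20 kb alone held no such region, so that ratio was not computed.

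The share of 2 whole ages among 4-list regions stayed below the mean of the pairings with all 6 mice kept. With 1 mouse left out, this share counts only regions that lack the remaining mouse of the same age. It then ran from 4.11% (without youth-1) to 56.4% (without youth-2), and only the latter passed above the mean. That 56.4% stands for the 114 regions that lack youth-1, the weakest list. The share with a whole age among 3-list regions passed above the mean at a pileup of at least 5 (60.5%). With 1 mouse left out it ranged from 49.5% (without youth-1) to 72.2% (without mid-1). No p of either fell below 0.2 (exact permutation over pairings). For the 4-list share with 1 mouse left out, pairings that leave the same mouse unpaired give the same share. The smallest p this allows is 0.2, which is that of the run without youth-2. Those runs cannot reach 0.05 and say nothing of the absence of a grouping by age. Pearson's r of regions per mouse turned positive at q of at most 0.05 (0.35), at −log10 q of at least 5 (0.35), with equal lengths (0.022) and with 50 bp around summits (0.094), and ranged from -0.39 to 0.54 (without youth-2) with 1 mouse left out. That of the share of the list turned on assembled chromosomes only (-0.00012) and without regions over 5 times the input background (-0.0014), and ranged from -0.074 (without youth-1) to 0.26 (without mid-2). That of the fold percentile turned at −log10 q of at least 5 (-0.0035) and at a pileup of at least 5 (-0.35), and ranged from 0.06 to 0.63. No adjusted p of these exact permutation tests fell below 0.3. The cause of these turns was not tested.

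With replicate number as a block, r was -0.26, 0.0023 and 0.12 for the 3 measures (exact permutation p = 0.833, 0.972 and 0.833). The labels do not say whether the numbers pair the mice. Deviations of same-numbered mice from their age means correlated by 0.0086, 0.076 and 0.082 over 2670 windows of 1 Mb. Correlations of this kind cannot settle whether same-numbered mice were handled together.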

Other observations

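Some regions of 3 or 4 lists lay in groups. When neighbours up to 20 kb apart were chained, 2329 stood alone, and the largest group held 11 regions at chromosome 8, 21184977 to 21252090. Of these 11, 9 had an input over 5 times the genome-wide level and none was a region with q of at most 0.05 in every list that held it. The next held 7 at chromosome 7, 59378526 to 59423415, of which 4 were regions with q of at most 0.05 in every list that held them, and 6 had input over 5 times the genome-wide level. A group of 5 lay at chromosome 8, 55567758 to 55576607, with a median fold of 2.17 and a median input of 13.1 times the genome-wide level. Another member lay within 5 kb for 11.4% of the regions of 3 or 4 lists, while 3.33% of the regions of 2 lists lay as close to one. These groups were chosen after their values were seen.

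Chromosome X held 88 regions of 3 or 4 lists against 6.67 in moved lists, a ratio of 13.2, where chromosome Y had 2.47 and no autosome exceeded 5.14. Peaks were sparse on X in every list, with 0.184 to 0.402 times the autosomal number per Mb. Of these 88 regions, 2 were regions with q of at most 0.05 in every list that held them, and 23.9% had input over 1.5 times the genome-wide level.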
